A study of Musa acuminata AAA Group with 4 samples.

Results

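Potassium channels are membrane proteins through which potassium ions pass down their electrochemical gradient, and in plants most of them belong to the Shaker family, whose subunits assemble as tetramers. Here 7 banana genes were described: the 6 that the authors' table on potassium transport and uptake describes as a potassium channel or channel subunit, and the sodium transporter HKT1-like gene Ma01_g18740 of the leaf table. They are 7 of the 5520 genes found in the deposited files. The 6 genes of the potassium table have a value in all 4 libraries, and HKT1-like has values in leaf, its root level being not analysed here. Of the 7 genes, 3 are in the leaf table and 4 in the root table.

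Leaves and roots came from seedlings of Cavendish, a triploid dessert banana of the Musa acuminata AAA group. The normal-potassium seedlings received Hoagland complete culture solution, a full mineral medium, and the low-potassium seedlings a low-K+ culture solution, and the labels give 60 days as the processing time for every sample. Polyadenylated RNA was sequenced from 4 samples, so that each organ has 1 library with normal and 1 with low potassium. Nothing in the labels says how many plants a sample holds. With 1 library per group there was no replicate check, no test was possible, and every ratio below compares 2 libraries.

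Shaker channels differ in the direction in which they carry potassium most easily. Outward rectifiers such as SKOR and GORK of Arabidopsis release potassium, SKOR into the xylem of the root and GORK from guard cells, whereas inward rectifiers such as KAT1 and KAT2 of Arabidopsis, best known in guard cells, take it up. KAT3 of Arabidopsis, also called KC1, forms no working channel alone and alters the channels it joins. The beta subunit is a soluble protein related to aldo-keto reductases that binds channel subunits in the cytosol. HKT transporters carry sodium, in some members with potassium, and HKT1 of Arabidopsis removes sodium from the xylem sap.

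Levels are FPKM, fragments scaled for gene length and library total, as the authors deposited them, and levels of different genes can be compared on that scale. The libraries held between 4203924 and 4555000 fragments assigned to genes, as computed from the deposited values. Intervals are 95% intervals and cover counting error only. A gene is called listed where the authors' table of that tissue holds it. All listed genes have a log2 ratio of at least 1 in size and also a low FDR. A gene can thus differ over 2-fold and not be listed, as Ma07_g17570 did at 4.71-fold higher in root. In leaf 67.4% of all listed genes were higher in low potassium and 32.6% lower, and in root 40.4% were higher and 59.6% lower. The authors chose the genes of the potassium table among listed genes of these same libraries, so each of the 6 is listed in at least 1 tissue, and the counts below are not independent evidence of a direction. In whole-organ RNA, fewer cells of a type and less RNA per cell cannot be told apart.

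**Figure D1:**
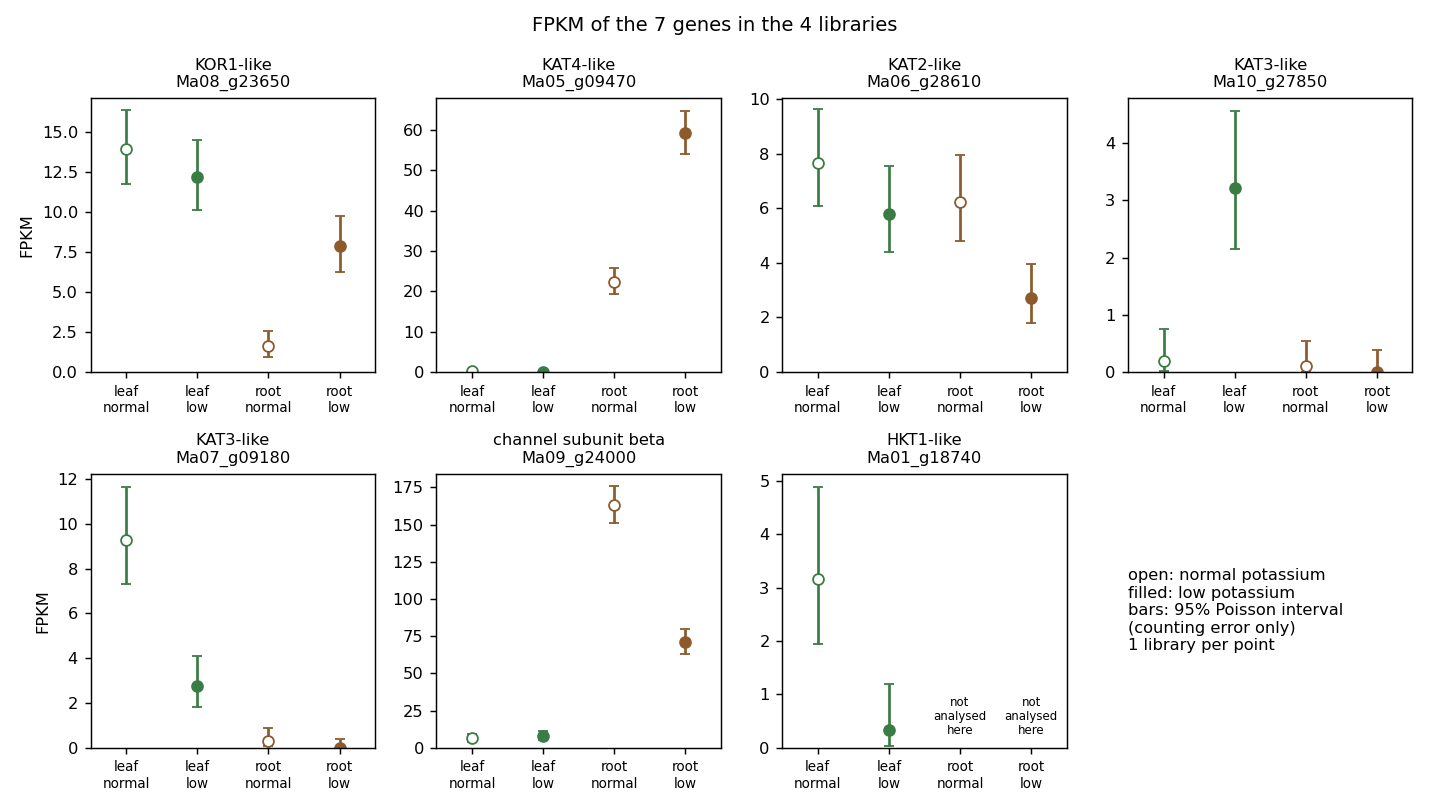
FPKM of each of the 7 genes in the 4 libraries, 1 panel per gene with its own linear axis. Points are single libraries, open for normal and filled for low potassium, green for leaf and brown for root, and bars are 95% Poisson intervals. KAT4-like reached 59.2 FPKM in low-potassium root and 0.24 FPKM at most in leaf, and the beta subunit gene reached 163 FPKM in normal-potassium root.

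In root, KOR1-like and KAT4-like were higher in the low-potassium library, and KAT2-like and the beta subunit gene were lower. All 4 are listed, 2 in each direction. Among the 29 genes of the potassium table with a fold in root, 48.3% were at least 2-fold higher and 31% at least 2-fold lower.

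KOR1-like (Ma08_g23650), named after an outward rectifier, measured 1.65 FPKM in normal-potassium and 7.88 FPKM in low-potassium root. It was 4.78-fold higher in low potassium (interval 2.84 to 8.45, from 18.37 and 83 estimated fragments). In leaf the same gene measured 13.9 FPKM with normal and 12.2 FPKM with low potassium. That leaf ratio, 1.14-fold lower, did not differ from 1 beyond counting error (interval 0.893 to 1.46). The low-potassium root library thus lay between the normal-potassium root library and both leaf libraries. The root ratio was 5.45 times the leaf ratio (interval 3.10 to 9.57, Wald interval on the log scale). Among the 1917 genes listed as higher in root, whose median was 3.22-fold, KOR1-like ranked 527 by its ratio.

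KAT4-like (Ma05_g09470) was the most abundant of the 5 channel genes in both root libraries. It measured 22.3 FPKM in normal-potassium and 59.2 FPKM in low-potassium root. This was 2.65-fold higher in low potassium (interval 2.24 to 3.14, from 195.97 and 492.06 estimated fragments). Its ratio was smaller than the median of the higher root genes, with rank 1262 of 1917, while its mean level ranked 1374 of the 4747 listed root genes. In leaf the gene was almost undetected, with 2 fragments (0.24 FPKM) in normal potassium and none in low potassium, where the floor of 3 fragments equals 0.37 FPKM and the 95% Poisson interval reaches 0.456 FPKM. No leaf fold is given, since both leaf libraries lie at or under 3 fragments.

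KAT2-like (Ma06_g28610), named after an inward rectifier, measured 6.23 FPKM in normal-potassium and 2.73 FPKM in low-potassium root. It was 2.28-fold lower in low potassium (interval 1.44 to 3.72, from 65 and 27 fragments). In leaf it measured 7.67 FPKM with normal and 5.79 FPKM with low potassium. The leaf ratio also pointed down, 1.32-fold lower, but its interval included 1 (0.926 to 1.91). The root ratio and the leaf ratio did not differ beyond counting error, the root ratio being 1.72 times further down with an interval of 0.978 to 3.03. Low-potassium root was therefore the low library of this gene, and the other 3 libraries lay between 5.79 and 7.67 FPKM with neighbours that did not differ beyond counting error.

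The beta subunit gene (Ma09_g24000), described as a probable voltage-gated potassium channel subunit beta, was the most abundant of the genes in root. It measured 163 FPKM in normal-potassium and 71.2 FPKM in low-potassium root, 2.29-fold lower in low potassium (interval 1.997 to 2.63). By mean level it ranked 492 of the 4747 listed root genes. By its ratio it ranked 2384 of the 2830 genes listed as lower, whose median was 3.48-fold. In leaf it measured 6.37 FPKM with normal and 7.97 FPKM with low potassium, a ratio of 1.25-fold higher whose interval included 1 (0.722 to 2.19). The root ratio was 2.87 times further down than the leaf ratio (interval 1.68 to 4.90).

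Neither KAT3-like gene could be followed in root. Ma07_g09180 had 3 fragments (0.29 FPKM) in normal-potassium root and Ma10_g27850 had 1 (0.10 FPKM), and both were at 0 in low-potassium root. At this depth no difference between the root libraries was detectable for either.

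Marker genes of other cell types were counted among the listed root genes only, which all differ by selection. Of all listed root genes 40.4% were higher and 59.6% lower. Of the 17 listed vascular genes 6 were higher and 11 lower in low-potassium root, near the shares of all listed root genes. The cellulose synthase subunits were lower, while the xylem cysteine proteinase genes Ma06_g16010 (30.4 and 75.0 FPKM) and Ma02_g06870 (6.49 and 15.6 FPKM) were higher. Laccases went both ways. The summed level of all 17 was 538 FPKM with normal and 258 FPKM with low potassium. All 3 listed genes of green tissue were higher, with summed levels of 16.7 and 81.2 FPKM. None of these markers was at 0 in a root library. The listed chlorophyll a-b binding genes of root lay between 2.60 and 20.2 FPKM. Those listed in leaf, at 34.6 to 229 FPKM, are other genes, so no such gene is compared between the organs. The part of these markers in the channel ratios was not tested.

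**Figure D2:**
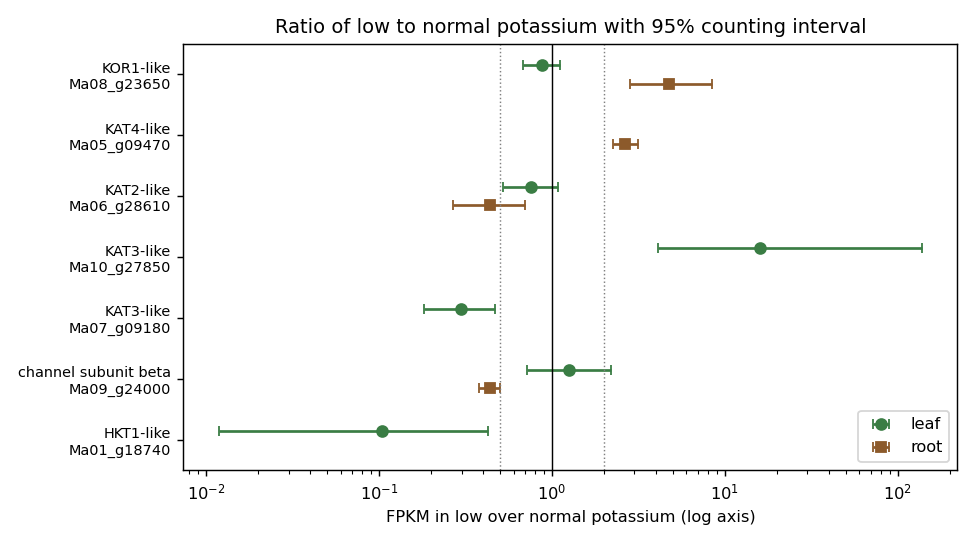
Ratio of FPKM in low over normal potassium for each gene on a log axis, with leaf as green circles, root as brown squares, bars for the 95% interval of counting error, a solid line at 1 and dotted lines at 2-fold. KOR1-like lay at 4.78-fold higher in root and at 1.14-fold lower in leaf, and genes with both libraries at or under 3 fragments have no point.

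In leaf, KAT3-like Ma10_g27850 was higher in low potassium, and KAT3-like Ma07_g09180 and HKT1-like were lower. These 3 of the 7 genes are listed there. HKT1-like was taken from the leaf table, so its listing was fixed by that choice, and it is not in the potassium table. Among the 26 genes of the potassium table with a leaf fold, 26.9% were at least 2-fold higher and 11.5% at least 2-fold lower. KOR1-like, KAT2-like and the beta subunit gene were not listed in leaf, and the intervals of their leaf ratios included 1 as given above.

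The KAT3-like genes moved in opposite directions in leaf. Ma07_g09180 measured 9.30 FPKM with normal and 2.77 FPKM with low potassium, 3.36-fold lower (interval 2.12 to 5.47). Ma10_g27850 measured 0.20 FPKM with normal and 3.22 FPKM with low potassium, 16.1-fold higher (interval 4.085 to 139, from 1.92 and 30.21 estimated fragments). With normal potassium Ma07_g09180 was the far more abundant of both, while with low potassium the intervals of their levels overlapped. The share of Ma10_g27850 in the summed level of both KAT3-like genes was 2.11% with normal and 53.8% with low potassium. The sum of both was 9.50 FPKM with normal and 5.99 FPKM with low potassium, 1.59-fold lower (interval 1.11 to 2.28). With counts over library depth the sum was 1.33-fold lower and its interval included 1 (0.927 to 1.91), so a difference in the sum does not hold under both scales. The sum and this alternative were chosen after the values were seen. Neither gene has whole counts in leaf, which fragments divided among similar sequences can give, so the split between them is uncertain. For Ma07_g09180 the deposited FPKM and counts give different ratios, and the counts over library depth put it 2.81-fold lower.

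By ratio, Ma10_g27850 ranked 61 of the 797 genes listed as higher in leaf, whose median was 3.31-fold. By mean level it ranked 1148 of the 1183 listed leaf genes, near the bottom. Ma07_g09180 ranked 132 of the 386 genes listed as lower, whose median was 2.75-fold. By mean level Ma07_g09180 ranked 962 of the 1183. Both KAT3-like genes thus lay under the median mean level of 15.5 FPKM over the listed leaf genes, and Ma10_g27850 was almost undetected with normal potassium.

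HKT1-like (Ma01_g18740) measured 3.17 FPKM in normal-potassium and 0.33 FPKM in low-potassium leaf. It was 9.61-fold lower in low potassium (interval 2.33 to 84.8), a ratio that rests on 20 and 2 fragments. Both counts are whole. It ranked 33 of the 386 genes listed as lower in leaf by its ratio and 1147 of 1183 by its mean level. Of the genes that exchange or carry sodium and other cations, 1 more was listed in leaf, sodium/hydrogen exchanger 2-like (Ma11_g18790), a vacuolar antiporter type, at 24.2 and 11.3 FPKM and 2.14-fold lower (interval 1.62 to 2.85).

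Markers in leaf were likewise counted among the listed genes only, which all differ by selection. Of all listed leaf genes 67.4% were higher and 32.6% lower. All 7 listed genes of green tissue were higher in low-potassium leaf, with summed levels of 375 and 1037 FPKM. Of 3 listed leaf genes matching the guard cell words, 1 was higher and 2 were lower, with summed levels of 46.7 and 25.7 FPKM. None of these was at 0 in a leaf library. They were an S-type anion channel and HT1-like kinases, and 14 of 15 genes matching the same words were higher in low-potassium root, so these words do not mark guard cells alone. The part of cell composition in the leaf ratios was not tested.

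In the authors' deposited tables the FDR of the listed comparisons ran from 4.33e-34 for the beta subunit gene in root to 0.000858 for HKT1-like in leaf. Those values compare 2 libraries and carry no biological replicate.

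The genes divided by organ. KAT4-like was 93.1-fold higher in root than in leaf with normal potassium (interval 25.4 to 774, from 196 fragments in root and 2 in leaf) and at least 159.9-fold higher with low potassium, against the floor of 3 fragments in leaf. The beta subunit gene was 25.6-fold higher in root with normal potassium (interval 17.3 to 39.5) and 8.935-fold higher with low potassium (interval 6.19 to 13.3). These are the members whose root libraries both lay above both leaf libraries.

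KOR1-like and the KAT3-like genes lay higher in leaf. KOR1-like was 8.42-fold lower in root than in leaf with normal potassium (interval 5.15 to 14.6) and 1.55-fold lower with low potassium (interval 1.16 to 2.06). Ma07_g09180 was 32.1-fold lower in root with normal potassium (interval 10.6 to 159), and at least 8.81-fold lower with low potassium. Ma10_g27850 was at or under 3 fragments in both normal-potassium libraries, and with low potassium it was at least 10.3-fold lower in root. KAT2-like did not differ between the organs beyond counting error with normal potassium, 1.23-fold lower in root (interval 0.872 to 1.74), and was 2.12-fold lower with low potassium (interval 1.32 to 3.49). Leaf and root came from different libraries, so organ and library cannot be told apart in these ratios.

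**Figure D3:**
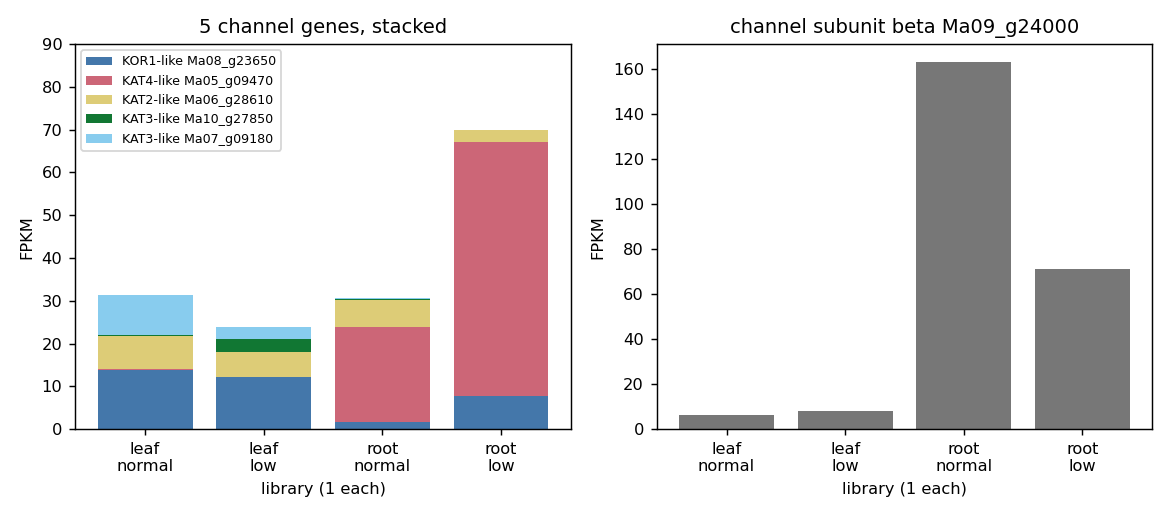
Left, stacked FPKM of the 5 channel genes in each library, and right, FPKM of the beta subunit gene, both on linear axes from 0 with 1 library per bar. KAT4-like made up 84.8% of the sum in low-potassium root, and the beta subunit gene was at 71.2 FPKM there.

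The 5 channel genes, without the beta subunit, summed in leaf to 31.3 FPKM with normal and 24.0 FPKM with low potassium. In root they summed to 30.6 and 69.8 FPKM. With normal potassium the sums of leaf and root were thus close, but different genes made them up. KOR1-like held 44.4% of it in leaf, Ma07_g09180 29.7% and KAT2-like 24.5%, whereas KAT4-like held 73.0% in root and KAT2-like 20.4%. With low potassium the sum was 1.31-fold lower in leaf (interval 1.10 to 1.56) and 2.28-fold higher in root (interval 1.98 to 2.64). With counts over library depth it was 1.24-fold lower in leaf (interval 1.04 to 1.47) and 2.245-fold higher in root (interval 1.946 to 2.595). The genes in these sums did not move together. In leaf Ma07_g09180 went from 9.30 to 2.77 FPKM and Ma10_g27850 from 0.20 to 3.22 FPKM. The leaf ratios of KOR1-like and KAT2-like did not differ from 1 beyond counting error. In root KAT4-like went from 22.3 to 59.2 FPKM, and KAT2-like from 6.23 to 2.73 FPKM. The leaf sum thus depends on Ma07_g09180, whose deposited FPKM and counts give different ratios. These sums were not planned in advance. In low-potassium root KAT4-like held 84.8%, KOR1-like 11.3% and KAT2-like 3.91%. The beta subunit gene stood at 5.33 times the channel sum in normal-potassium root and 1.02 times in low-potassium root, and at 0.203 and 0.333 times in leaf. These sums cover the listed channels and not every channel gene of banana.

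For each of the 6 genes the most similar pattern was sought among 434 other genes with FPKM in all 4 libraries and a mean of at least 1 FPKM, by the Euclidean distance of mean-centred log2(FPKM + 1) values. The candidates are mostly genes listed in both tissues. The nearest to KAT2-like was potassium transporter 7-like (Ma09_g11150), a carrier of the KUP/HAK family, at a distance of 0.519, with 21.2, 16.4, 12.1 and 5.59 FPKM in the order normal leaf, low leaf, normal root, low root. The nearest to KAT4-like was flavonoid 3',5'-hydroxylase 1-like (Ma11_g14250) at 0.685, with 9.73, 3.69, 117 and 338 FPKM in that order. For Ma07_g09180 it was a disease resistance protein RPM1-like gene (Ma09_g28700) at 0.526, followed by CBL-interacting protein kinase 1-like (Ma11_g04530) at 0.664. The kinase gene measured 77.1, 36.9, 16.2 and 12.1 FPKM in that order, against 9.30, 2.77, 0.29 and 0 FPKM for Ma07_g09180. Those of KOR1-like were Ma06_g02770, which has no description, at 0.798 and copper transporter 6-like (Ma02_g05010) at 0.803. In normal and low leaf the former measured 37.6 and 17.9 FPKM and the latter 209 and 104 FPKM. KOR1-like measured 13.9 and 12.2 FPKM there, so the leaf part of the pattern differed. The nearest to the beta subunit gene were the uncharacterized Ma07_g10670 at 0.785 and trichome birefringence-like 19 (Ma04_g04090) at 0.822. Those of Ma10_g27850 were the LRR receptor-like kinase gene Ma08_g19670 at 0.80 and Ma04_g29230, which has no description, at 0.964, and the second for KAT4-like was a tropinone reductase homolog (Ma11_g22380) at 1.05. The second for KAT2-like was the uncharacterized Ma06_g10560 at 0.577. With 4 libraries such distances describe the pattern and no more.

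**Figure D4:**
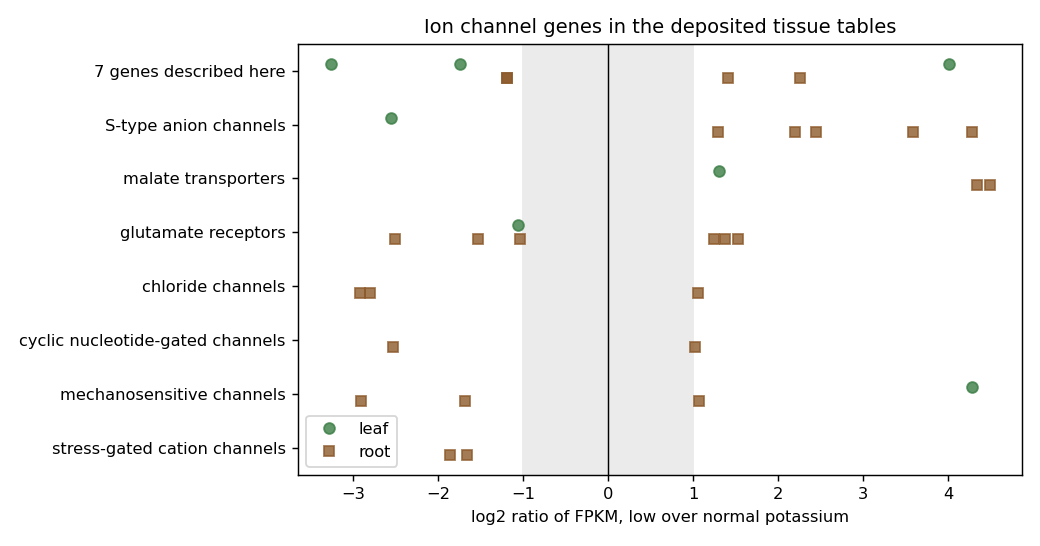
Log2 ratio of FPKM in low over normal potassium for the 7 genes and for other ion channel genes in the deposited tissue tables, by class, with leaf as green circles and root as brown squares. The grey band marks log2 ratios between -1 and 1, where no gene is listed, and all 5 S-type anion channel genes of root lie to the right of it.

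Other ion channels were also listed, 4 in leaf and 23 in root. Of these, 2 were higher and 2 lower in leaf, and 13 were higher and 10 lower in root. Over all listed genes 67.4% were higher in leaf and 40.4% in root. The median log2 ratio was 0.12 in leaf and 1.06 in root, against 1.32 and -1.20 over all listed genes of each organ. Since no listed gene lies between -1 and 1, such medians follow which direction holds more genes and give no typical shift. The 5 S-type anion channel genes of root, from a family that passes chloride and nitrate, were all higher, from 2.45-fold to 19.4-fold. The most abundant, SLAH2-like Ma06_g33580, measured 11.1 and 51.1 FPKM and was 4.60-fold higher with an interval of 3.65 to 5.86, and SLAH2-like Ma05_g06600 measured 7.02 and 17.2 FPKM. The malate transporter genes Ma02_g11790 and Ma09_g18240, of the ALMT family of anion channels, were 22.5-fold and 20.2-fold higher in root. The 1 S-type anion channel gene listed in leaf, SLAH2-like Ma09_g05270, went the other way. It measured 5.70 and 0.97 FPKM, 5.88-fold lower (interval 2.62 to 15.5), and was named after its values were seen.

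Channels of the other classes were mixed in root, except for the stress-gated class. Cyclic nucleotide-gated channel 20 (Ma10_g29510) stood at 25.6 and 52.0 FPKM and was 2.03-fold higher with an interval of 1.74 to 2.37. Of 6 glutamate receptor-like channels, which pass calcium and other cations, 3 were higher and 3 lower. Among them Ma06_g03580 was 2.37-fold higher, while Ma06_g28460 was 5.68-fold lower (28.4 and 4.99 FPKM) and Ma05_g00670 was 2.06-fold lower. Both stress-gated cation channel genes were lower, Ma01_g05470 3.63-fold and Ma04_g13380 3.165-fold. Of 3 chloride channel genes 1 was higher, CLC-a-like Ma03_g17470 (2.09-fold), named after an Arabidopsis protein that carries nitrate into the vacuole, and the CLC-g-like genes Ma06_g04570 and Ma01_g20040 were 7.58-fold and 6.97-fold lower. Of 3 mechanosensitive channel genes Ma08_g34630 was 2.09-fold higher, and Ma07_g11970 and Ma08_g14070 were 7.5-fold and 3.22-fold lower. The second of the 2 cyclic nucleotide-gated channel genes, Ma09_g27430, was 5.79-fold lower. The lower chloride, mechanosensitive and cyclic nucleotide-gated channel genes and Ma04_g13380 were named after their values were seen. In leaf the most abundant was glutamate receptor 2.7-like Ma02_g17220 at 13.3 and 6.37 FPKM, 2.09-fold lower.

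Families that include regulators and energy sources of potassium transport were counted from the same tables. In Arabidopsis, some calcineurin B-like sensors and their kinases activate channels such as AKT1, some type 2C phosphatases oppose them, and proton pumps set the membrane voltage. The genes were taken by words in their descriptions, and a role of each in potassium transport was not tested. Both listed sensor genes of root were higher, calcineurin B-like protein 4 (Ma01_g07300) at 17.4 and 45.6 FPKM and protein 7 (Ma01_g07290) at 5.61 and 17.7 FPKM. No sensor gene was listed in leaf. Over all listed genes, 40.4% were higher and 59.6% lower in root, and 67.4% were higher in leaf. Phosphatases 2C and 14-3-3 proteins were higher for 22 of 30 listed genes in root and 5 of 7 in leaf, the leaf count being near the share of all listed leaf genes. The most abundant were phosphatase 2C 60 (Ma09_g24570) in root at 144 and 325 FPKM, which was higher, and phosphatase 2C 40 (Ma10_g20080) in leaf at 212 and 90.6 FPKM, which was lower. Of 12 proton pump genes in root 10 were lower, all of them V-type ATPase subunits or pyrophosphate-driven pumps, for example Ma01_g01200 (196 and 92.4 FPKM) and Ma03_g12920 (209.8 and 68.0 FPKM). The other 2, plasma membrane ATPase genes, were higher, Ma10_g30850 at 52.2 and 154.8 FPKM and Ma03_g29190, named after its values were seen, at 5.26 and 12.6 FPKM. The 1 proton pump gene listed in leaf, plasma membrane ATPase-like Ma04_g27230, was 4.06-fold lower.

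The cation exchange genes of root were both higher, sodium/hydrogen exchanger 8 (Ma08_g18780) at 84.7 and 235 FPKM and cation/H(+) antiporter 19-like (Ma03_g25860) at 17.1 and 45.6 FPKM. Within the potassium table, the channel and beta subunit genes had a median log2 ratio of 0.11 over the 4 of 6 with a root fold. Of these 4, 2 were higher and 2 lower, and none lay near that median. The median of the 8 potassium transporters was -0.998 and that of the 14 CBL-interacting kinases 1.42. In leaf the medians were -0.19 for the 5 of these 6 genes with a fold, which leaves out KAT4-like, -0.23 for the transporters and 0.66 for the 11 kinases with a fold. All these families were chosen by the authors on these libraries.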

How the data were processed

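Per the labels' protocols, CTAB-extracted RNA underwent DNase treatment, oligo(dT) enrichment, fragmentation and random-hexamer priming, steps that do not mark the strand. Per the file headers, the authors deposited for each tissue an estimated count and an FPKM value per library, a gene length, and, for low against normal potassium, a log2 ratio, a p-value and an FDR. Aligner, counter, genome build and test were not given in the sources used here. The potassium table has no unit in its header. Its values equal the deposited FPKM of all 10 genes shared with the leaf table and all 22 shared with the root table. Of the estimated counts, 33.8% to 38.1% per library are not whole (tolerance 0.001).

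Fragments per library came from a line of count over FPKM against length, fitted to genes with over 100 fragments and over 5 FPKM, leaving out genes over 1% off it. Counts of potassium table genes missing from a tissue table were computed from FPKM, length and depth. Of 12 such values 9 lay within 0.1 of a whole number, some of them 0 and so whole at any depth. Those of KAT2-like in leaf (75.62 and 55.79) and of the beta subunit gene in low-potassium leaf (31.86) did not. Folds are FPKM ratios with no pseudocount. Their intervals are exact Clopper-Pearson intervals of the rounded counts, and single levels have exact Poisson intervals. PCR copies are not independent molecules. Where 1 library was at 0, a floor of 3 fragments in that library gave a bound, and where both were at or under 3 no fold was given. Alternatives were a pseudocount of 1 or 0.1 FPKM, counts over depth and a mean of at least 1 FPKM. The scripts were tested on simulated data. Python 3.11.15, pandas 2.3.3 and scipy 1.17.1 were used.

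The genes and word lists were chosen with earlier results of these data known. All 7 genes are named. Of the other channels 12 are named by mean FPKM, of other lists at most 3, and 2 nearest genes for each of the 6 with 4 values.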

Additional observations from a re-analysis of the deposited data

Results flagged for a closer look

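The ratio of low to normal potassium pointed in opposite directions in leaf and root for KOR1-like (Ma08_g23650) and for the beta subunit gene (Ma09_g24000). The root ratio was 5.45 times the leaf ratio for KOR1-like and 2.87 times further down for the beta subunit gene. The intervals given above cover counting error, the difference between the organs was not tested over replicates, and the leaf ratios alone did not differ from 1 beyond counting error.

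Mechanosensitive channel 6-like (Ma08_g14070), named after its values were seen, was listed in both organs with opposite signs. Its log2 ratio was 4.29 in leaf (0.08 and 1.56 FPKM, from 1 and 18 fragments) and -1.69 in root (4.64 and 1.44 FPKM). This difference was not tested.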

How the results depend on the processing

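No paired analysis was possible because each group holds 1 library, and for the same reason no library could be left out. For low over normal potassium of single genes, with counts over depth or a pseudocount of 0.1 FPKM each ratio stayed within its counting interval, and with these or a mean of at least 1 FPKM each count of genes at least 2-fold higher or lower was the same. With a pseudocount of 1 FPKM no direction changed, and 21 of 28 values and counts stayed within those limits. Of those within them, HKT1-like in leaf came down to 3.14-fold lower. The other 7 lay outside them. In leaf, Ma10_g27850 was then 3.52-fold higher. Root over leaf, KAT4-like was 18.8-fold higher with normal and 60.2-fold higher with low potassium, and Ma07_g09180 was 7.98-fold and 3.77-fold lower. Ma10_g27850 was 4.22-fold lower in root than in leaf with low potassium. The count of genes at least 2-fold lower in root was 1 in place of 2, since KAT2-like was then 1.94-fold lower. A pseudocount by construction shrinks ratios of low levels most. The sum of both KAT3-like genes in leaf was 1.33-fold lower with counts over depth, an alternative added after seeing the data, with an interval that included 1. Depth limits HKT1-like and Ma10_g27850 in leaf, KAT4-like in leaf and both KAT3-like genes in root, which rest on 0 to 3 fragments in at least 1 library.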
